A study of Mus musculus with 5 samples.

Results

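The NF-kB system of cardiac fibroblasts (CF) was described through 10 transcripts, 5 that encode the subunits (Nfkb1, Nfkb2, Rel, Rela and Relb) and 5 whose products inhibit or modulate NF-kB (Nfkbia, Nfkbib, Nfkbie, Nfkbiz and Tnfaip3). The genes were chosen by name among the 20365 gene names of the deposited tables, and all 10 were found. Each gene was represented by 1 of its 3′ UTR intervals, the one with the highest mean CPM (reads scaled to the library total) in the labeled libraries and the longest of those that tied.

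NF-kB is a family of dimeric transcription factors that switch on cytokine, chemokine and survival genes. In resting cells the dimers are held in the cytoplasm by IκB proteins, which are degraded when receptors such as those for TNF and IL-1 are engaged. Several inhibitor genes are themselves NF-kB targets and so form a negative feedback loop. In CF the pathway is known for driving the secretion of inflammatory mediators.

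The cultures were CF of adult, healthy, male wildtype C57Bl/6J mice, freed from the perfused heart with collagenase and cultured to confluency. In the labeled group (n = 3), 0.1 mM 4-thiouridine (S4U), which cells incorporate into new RNA in place of uridine, was present for 12 h, and the unlabeled group (n = 2) was kept for the same time without it. RNA of both groups was alkylated, and QuantSeq 3′ end libraries were made. Incorporated S4U is then read as C, so the T>C conversion rate, conversions divided by covered T positions, rises with the share of a transcript made during the labeling. The study's methods give 3 fibroblast preparations for this experiment, but the labels do not say which library came from which, so p-values measure the spread between these libraries, which may be partly technical. No inflammatory stimulus was part of the design.

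With 1 interval per gene, the libraries held from 506045 to 1843033 counted reads, and labeled replicate 3 was the shallowest. Levels are given as CPM relative to these counted reads, because the deposited CPM divides by a total that was 7.58 to 28.9 times larger. Labeled replicate 1 stood apart from labeled replicates 2 and 3, since the chi-square of its read counts, divided by the degrees of freedom, was 16.6 and 11.0, against 2.04 between replicates 2 and 3. The unlabeled replicates also differed, with a value of 16.1. The 9 fibroblast markers (among them Col1a1, Dcn and Pdgfra) summed to between 38399 and 42506 CPM in labeled and between 31139 and 35079 CPM in unlabeled libraries. Of the other cell types that a heart digest could hold, 6 endothelial markers summed to 115 to 238 CPM over all libraries, 8 immune markers to 45.05 to 85.4 CPM, with Cd3e and Cd79a at 0, and 6 cardiomyocyte markers to 1.27 to 8.03 CPM. Smooth muscle and pericyte markers summed to 16.7 to 33.6 CPM in labeled and 10.04 to 13.0 CPM in unlabeled libraries. Epicardial markers summed to 3.81 to 7.90 and 1.63 to 2.01 CPM. Like the fibroblast sums, these low sums did not overlap between the groups. Of 9807 single genes tested for reads, 21.3% had groups without overlap. The isolation in the study's methods removes CD31+ endothelial and CD45+ immune cells with magnetic beads before seeding. Pecam1, which encodes CD31, was at 5.71 to 41.2 CPM over all libraries, and Ptprc, which encodes CD45, at 0 to 3.35 CPM. The part of other cell types in the levels below was not tested. In bulk RNA, fewer cells of a type and less RNA per cell cannot be told apart.

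The intervals lay in the last exon of the annotated canonical transcript on GRCm39, apart from a few bases of Nfkbia and Rela. Exon bases made up 512 of 513 for Nfkbia and 715 of 718 for Rela. Of the 10 intervals, 9 held no coding bases. Nfkbia, which encodes IκBα, was represented by chr12:55536194-55536706 on the minus strand. Nfkb1 (chr3:135290416-135291168, minus strand) was the exception with 50 coding bases among 753. The Nfkb2 interval (chr19:46300334-46300839, plus strand) overlapped Psd on the other strand, and whether strand was used in the counting is not given in the sources used here. The interval of Nfkbib (chr7:28458463-28458527, minus strand) was only 65 bases long with 18 T positions, while a neighbouring interval of 758 bases held no read in any library. The other intervals were 1102 bases for Nfkbie (chr17:45872994-45874095), 1353 for Nfkbiz (chr16:55631740-55633092), 1821 for Tnfaip3 (chr10:18876658-18878478), 5418 for Rel (chr11:23686847-23692264), 718 for Rela (chr19:5697445-5698162) and 336 for Relb (chr7:19340142-19340477).

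The 3′ UTRs of feedback regulators are a textbook place for AU-rich elements, which bind proteins that destabilise mRNA, so the pentamer ATTTA was counted on the transcript strand of each interval. It was present in 6 of the 10 genes, 3 of them inhibitors and 3 subunits, and in 62.5% of 20329 genes with 1 interval each. Rel held 12 copies, Tnfaip3 and Nfkb1 held 5 each, Nfkbiz 4, Nfkbia 2 and Nfkb2 1, whereas Nfkbib, Nfkbie, Rela and Relb held none. Among intervals of like length (within 20%), at least as many copies were found in 3.52% for Nfkb1, 21.7% for Nfkbia, 25.9% for Nfkbiz, 27.1% for Tnfaip3, 32.9% for Rel and 49.9% for Nfkb2. The longer TATTTAT, which contains ATTTA, was found in 2 copies each in Nfkbia, Tnfaip3 and Rel, that is in 3 of the 10 genes, beside 25.8% of all genes. Among intervals of like length it was in 12.8% for Nfkbia, 37.6% for Tnfaip3 and 65.5% for Rel. Windows of 30 bases are shown for the genes with a match, read 5′ to 3′ on the transcript strand of GRCm39, with ATTTA in capitals. They lie at chr12:55536393-55536422 (Nfkbia), chr16:55632214-55632243 (Nfkbiz), chr10:18877501-18877530 (Tnfaip3), chr3:135290460-135290489 (Nfkb1), chr19:46300383-46300412 (Nfkb2) and chr11:23688129-23688158 (Rel).
Nfkbia: aggaccacgttttATTTAttgtgcttttga
Nfkbiz: cctcttagATTTAtgtaATTTAcctaagtt
Tnfaip3: ttATTTAttatgaacttccaagttATTTAa
Nfkb1: tgttgaATTTAtaaatgctATTTActtttt
Nfkb2: taatcgaaatcttATTTAaacctcaagccc
Rel: tATTTAagccgaacatcatggcagaATTTA

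Promoter windows, from 250 bases before to 50 bases after the start, were taken from RefSeq (GRCm38.p6) for the 7 genes that the table held, which were Nfkbia, Nfkbib, Nfkbie, Tnfaip3, Nfkb2, Rel and Rela. A match to the kappaB consensus, the site that NF-kB dimers bind, was sought on both strands. It was found in 5 of these 7 genes, 3 inhibitors (Nfkbia, Nfkbie and Tnfaip3) and 2 subunits (Nfkb2 and Rel), beside 5.14% of 27025 genes with at least 1 window. Counted by window, 7 of the 10 windows of these genes held a match, beside 4.51% of 32851 windows. Nfkb2 had 3 windows and Tnfaip3 had 2, of which 1 held no match. Windows 2 and 3 of Nfkb2 shared a site with the same sequence and flanking bases, which is therefore counted in both. The windows of Nfkbib and Rela held no match. A match is a description of the sequence and was not tested for binding. For each gene 1 match is shown with 10 bases on either side, on the gene's strand with the match in capitals. It starts 29 bases before the start for Nfkbia, 106 for Nfkbie, 12 for Tnfaip3, 39 for Nfkb2 and 92 for Rel.
Nfkbia: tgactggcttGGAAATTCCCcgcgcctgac
Nfkbie: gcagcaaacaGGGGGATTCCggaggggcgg
Tnfaip3: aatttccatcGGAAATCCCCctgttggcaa
Nfkb2: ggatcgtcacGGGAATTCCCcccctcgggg
Rel: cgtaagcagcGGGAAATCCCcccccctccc

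The first question was how much of each transcript the CF held. Nfkbia was by far the most abundant of the 10, with 591, 327 and 405 CPM in labeled replicates 1, 2 and 3 and 619.6 and 333 CPM in the unlabeled replicates. Its mean of 441 ± 135 CPM (SD, n = 3 labeled libraries) lay above that of 98.2% of all gene names. It made up 79.3% of the inhibitors' reads in labeled replicate 1 (95% Wilson interval 76.9 to 81.5%), 71.6% in replicate 2 (67.7 to 75.2%) and 80.4% in replicate 3 (75.1 to 84.8%), and 82.9% and 75.6% in the unlabeled replicates. These intervals cover counting error only.

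Nfkbiz, whose product IκBζ acts in the nucleus and can also activate a subset of NF-kB targets, came next with 107, 87.9 and 61.3 CPM in the labeled and 78.1 and 70.3 CPM in the unlabeled replicates. Nfkbib, which encodes IκBβ, had 22.2, 19.2 and 19.8 CPM labeled and 23.9 and 22.1 CPM unlabeled, the narrowest spread of the 10 relative to its level. Its SD was 1.58 CPM. The labeled values rest on 35, 23 and 10 reads, so counting error limits what this narrow spread can mean. Nfkbie, which encodes IκBε, was read at 14.0, 15.1 and 9.88 CPM labeled and 16.3 and 10.04 CPM unlabeled. Tnfaip3, a ubiquitin-editing enzyme that dampens signalling upstream of the IκB kinase, was the least abundant with 11.4, 7.53 and 7.90 CPM labeled and 9.77 and 5.02 CPM unlabeled. Behind these Tnfaip3 values stood only 18, 9 and 4 reads in the labeled and 18 and 5 in the unlabeled libraries.

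Among the subunits, Nfkb1, whose precursor protein is processed to a DNA-binding subunit without an activation domain, had 70.4, 38.5 and 47.4 CPM labeled and 67.8 and 43.2 CPM unlabeled. Rela, the main activating subunit of the canonical pathway, had 25.4, 47.7 and 65.2 CPM labeled and 48.3 and 60.2 CPM unlabeled. The order of both genes therefore turned between labeled replicate 1, where Nfkb1 was higher, and replicates 2 and 3, where Rela was. Nfkb2, the precursor gene of the noncanonical pathway, was read at 20.3, 41.8 and 43.5 CPM labeled and 21.7 and 44.2 CPM unlabeled. Rel, an activating subunit best known from lymphocytes, was read at 23.5, 15.1 and 27.7 CPM labeled and 30.9 and 12.0 CPM unlabeled. Relb, the usual partner of the processed Nfkb2 product, had 10.2, 11.7 and 15.8 CPM labeled and 10.3 and 20.1 CPM unlabeled. The levels of the 5 subunits thus lay within a narrower span than those of the 5 inhibitors.

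**Figure D1:**
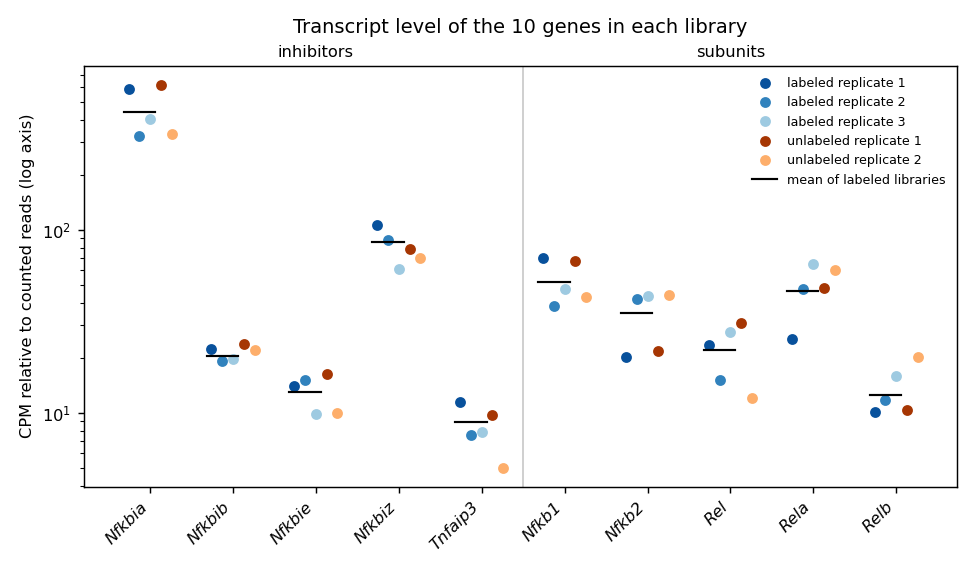
Level of each gene in each of the 5 libraries, as CPM relative to counted reads on a log axis, with inhibitors on the left and subunits on the right. Each point is a library and the black line is the mean of the 3 labeled libraries. Nfkbia lies between 327 and 619.6 CPM in all libraries, above every other gene, and labeled and unlabeled points overlap for all 10 genes.

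By mean level in the labeled libraries the order was Nfkbia, Nfkbiz, Nfkb1, Rela, Nfkb2, Rel, Nfkbib, Nfkbie, Relb and Tnfaip3. Of the 9 neighbouring pairs in this order, 5 differed by more than the SD of both genes, and in 2 of these, Nfkbia over Nfkbiz and Nfkbib over Nfkbie, the ranges over the labeled libraries did not overlap. Behind the latter pair stood only 35, 23 and 10 reads of Nfkbib and 22, 18 and 5 of Nfkbie. Nfkb1 and Rela, Rela and Nfkb2, Rel and Nfkbib, and Nfkbie and Relb were not separated beyond their spread, although Rela was above Nfkb2 within each of the 3 labeled libraries. Since 3′ end libraries read near the end of each transcript, CPM was not divided by length. Per kilobase of interval the means were 860 CPM for Nfkbia, 314 for Nfkbib, 69.6 for Nfkb2, 69.2 for Nfkb1, 64.2 for Rela, 63.0 for Nfkbiz, 37.4 for Relb, 11.8 for Nfkbie, 4.92 for Tnfaip3 and 4.07 for Rel. Nfkbia stayed first on both scales, while Nfkbib, with its interval of 65 bases, moved from place 7 to place 2. Levels were also summed over all intervals of a gene, which can overlap, so a read can count more than once. The sums were 441 CPM for Nfkbia, 104 for Nfkb1, 92.2 for Rela, 85.2 for Nfkbiz and 60.6 for Nfkb2. Relb had 37.7, Nfkbib 29.6, Nfkbie 25.9, Rel 22.1 and Tnfaip3 8.95 CPM. In these sums Nfkb1 and Rela were above Nfkbiz, and Relb was above Nfkbib, Nfkbie and Rel. The nested intervals of Nfkb1, of Rela and of Relb held equal read counts, so their reads were counted again. This order is therefore not a change in level.

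The inhibitors did not form a group apart from the subunits in level. Of the 25 pairs of an inhibitor and a subunit, the inhibitor was higher in CPM in every labeled library in 10 and lower in every labeled library in 9, and 6 pairs were mixed or tied in a library. Nfkbia was above all 5 subunits in every labeled library, and Nfkbiz was above 4 of them. Nfkbiz and Rela were the exception, since Rela was higher in labeled replicate 3. Tnfaip3 was below Nfkb1, Nfkb2, Rel and Rela in every labeled library, and so was Nfkbie, except that it tied with Rel in labeled replicate 2 at 18 reads each. The inhibitors summed to 745, 457 and 504 CPM and the subunits to 149.7, 155 and 199.6 CPM in labeled replicates 1, 2 and 3. The median inhibitor was lower than the median subunit, by a difference in log2(CPM + 1) of -0.08, -0.96 and -1.10, with a mean of -0.71 ± 0.56 (SD, n = 3), so the sum and the median of the inhibitors pointed in opposite directions. This difference became 0.34 ± 0.80 per kilobase and -0.04 ± 0.74 without Nfkbib, so its direction rests on how length is treated and its size on Nfkbib. Genes are not replicates and no test was made of it.

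The levels of several genes split the libraries by replicate number more than by labeling. In both libraries numbered 1, Nfkbia, Nfkbib, Tnfaip3 and Nfkb1 were above all other libraries, which held for 30.0% of 9807 genes. Nfkb2 and Relb were below all other libraries, which held for 22.7%. These counts, 4 and 2 of the 10 genes, were near the shares over all genes, so the split was not particular to the NF-kB genes. The immune markers summed to 45.05 and 47.7 CPM in the libraries numbered 1 and to between 53.4 and 85.4 CPM in the others. The cardiomyocyte markers split likewise, with 1.27 and 2.17 CPM against 5.93 to 8.03 CPM, while the endothelial sums overlapped, with 115 and 163 CPM against 121 to 238 CPM. Within each group the reads counted on intervals were highest in the library numbered 1. The part of these cells and of depth in this split was not tested. Without labeled replicate 1 the mean of Nfkbia was 366 CPM and the median difference of inhibitors and subunits was -1.03.

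The second question was which conversion rate each transcript had after labeling. All labeled libraries were taken after 12 h, so a speed of turnover cannot be read from these rates. Nfkbia had conversion rates of 0.0295, 0.0336 and 0.0346 in labeled replicates 1, 2 and 3, from 18455, 7863 and 4163 covered T positions, and it was the only 1 of the 10 genes with at least 1000 in every library. Its mean rate of 0.0326 ± 0.0027 (SD, n = 3) was above that of 20.7% of the 2107 genes with such coverage (called well covered here). Their median was 0.0388, with quartiles of 0.0343 and 0.0422. The Nfkbia rates of replicates 1 and 2 were below the lower quartile, and all 3 were below the median.

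The other inhibitors rested on less coverage. Nfkbiz had rates of 0.0389, 0.0371 and 0.0256 over 3112, 2181 and 664 T positions. Nfkbie had 0.03497, 0.0302 and 0.0469, the last from 3 conversions of 64 T positions with a 95% Wilson interval of 0.0161 to 0.129. Tnfaip3 had 0.0436, 0.0494 and 0.0246, and 77.8%, 88.9% and 50% of its 18, 9 and 4 reads held a conversion, the highest mean share of the 10 genes. Nfkbib stood highest in rate with 0.0602, 0.0498 and 0.0833. These values came from 25 of 415, 15 of 301 and 6 of 72 T positions, which all lie on the 18 T positions of its short interval. Pooled over the labeled libraries the Nfkbib rate was 0.0584 (0.0440 to 0.0770), an interval that covers counting error only and takes T positions of the same reads as independent. Its SD over the labeled libraries was 0.0171.

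Of the subunits, Nfkb1 had rates of 0.0447, 0.0408 and 0.0304 over 2952, 1151 and 593 T positions. Nfkb2 had 0.0406, 0.0478 and 0.0244 over 271, 648 and 246 T positions. Rel had 0.0259, 0.0373 and 0.0302. Rela was both the lowest in mean and the most even, with 0.0286, 0.0288 and 0.0306 over 700, 1147 and 654 T positions, a mean of 0.0293 ± 0.0011. Its pooled rate was 0.0292 with an interval, for counting error only, of 0.0233 to 0.0365. Relb had 0.0549, 0.0254 and 0.0283, from 14, 6 and 3 conversions, and its spread was the widest of the subunits.

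**Figure D2:**
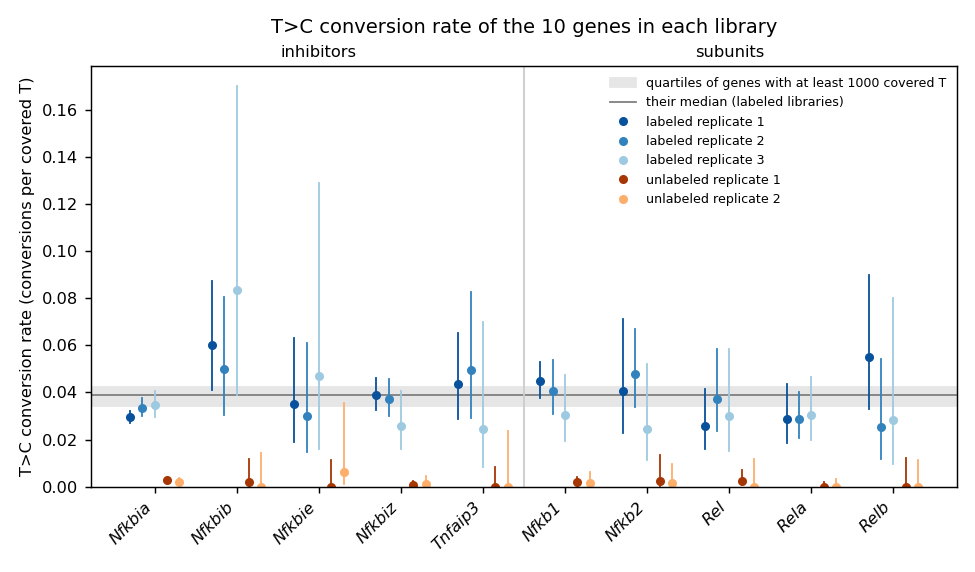
T>C conversion rate of each gene in each of the 5 libraries, with bars for the 95% Wilson interval from the covered T positions, inhibitors on the left and subunits on the right. The line and band give the median of 0.0388 and the quartiles of the 2107 well covered genes (1000 T positions or more per library). Nfkbib lies above the band in all 3 labeled libraries, Rela below it, and the unlabeled points lie near 0.

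By mean rate the order was Nfkbib, Tnfaip3, Nfkb1, Nfkb2, Nfkbie, Relb, Nfkbiz, Nfkbia, Rel and Rela. In 1 of the 9 neighbouring pairs, Nfkbib over Tnfaip3, the difference was larger than both SDs and the ranges did not overlap, and the other 8 pairs were not separated beyond their spread. Nfkbib stayed first with each labeled library left out, with means from 0.0550 to 0.0718. The lowest place was taken by Rela, by Relb without labeled replicate 1 and by Rel without labeled replicate 2. Ordered by the share of reads with a conversion instead, Tnfaip3 was first with a mean of 72.2% and Nfkb2 last with 33.0%, and Nfkbib came after Nfkb1. This share also depends on how many T positions a read covers.

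Inhibitors and subunits overlapped in conversion rate. The inhibitor was higher in every labeled library in 8 of the 25 pairs, lower in every one in 1, and the order was mixed in 16. Of the 8 pairs, 5 involved Nfkbib, and the other 3 were Nfkbia over Rela, Nfkbie over Rela and Tnfaip3 over Nfkb2. The 1 pair with a lower inhibitor was Nfkbiz under Nfkb1. The median rate of the inhibitors minus that of the subunits was -0.0017 in labeled replicate 1, -0.00021 in replicate 2 and 0.0044 in replicate 3, with a mean of 0.00083 ± 0.0032 (SD, n = 3), smaller than the spread between libraries. It lay between -0.00096 and 0.0021 with a labeled library left out, and it was -0.0019 ± 0.0018 without Nfkbib. Pooled over all their T positions, where Nfkbia dominates, the inhibitors had 0.0317, 0.0351 and 0.0340 and the subunits 0.0402, 0.0368 and 0.0295.

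**Figure D3:**
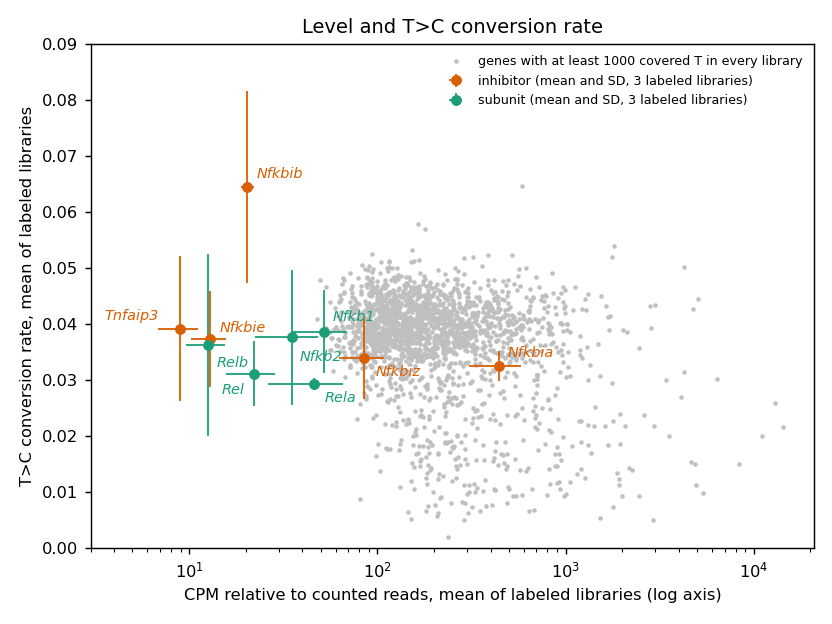
Mean T>C conversion rate against mean level (CPM relative to counted reads, log axis) over the 3 labeled libraries. Grey points are the well covered genes, coloured points are the 5 inhibitors and 5 subunits, and bars are 1 SD over the 3 libraries. The colours are intermixed in rate, Nfkbib is the highest of the 10 in rate at 0.0645, and Nfkbia the highest in level at 441 CPM.

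The rates were set against the background of unlabeled cells. Every labeled library was above both unlabeled libraries for all 10 genes, as it was for 89.2% of intervals, and the beta-binomial test called a raised rate for 10 of 10, where it called 94.6% of 19240 intervals, so the count is close to that of all intervals. The unadjusted p ranged from 7.13e-07 for Nfkbia to 0.00145 for Nfkbie in this likelihood-ratio test, which was fitted to each interval on its own. All 10 stayed called with each library left out in turn, where between 17056 of 19374 and 18632 of 20405 of all intervals were called. Without S4U, no conversion was seen in either library for Tnfaip3, Rela and Relb, and 0 of 622, 2896 and 646 T positions allow a rate of up to 0.00482, 0.00104 and 0.00464.

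Nfkbia had the best measured background. It held 66 conversions of 22667 T positions in unlabeled replicate 1 and 15 of 6774 in replicate 2, which gave rates of 0.0029 and 0.0022. Pooled, the rate was 0.00275 (95% Wilson interval 0.00221 to 0.00342). The mean over both libraries was 0.00256, above that of 94.9% of the 2107 well covered genes, whose median was 0.00051. Nfkb1 had 9 conversions of 4560 T positions in the unlabeled libraries, a rate of 0.0020, and Nfkbiz 4 of 4352, a rate of 0.00092. The interval of Nfkbiz, 0.00036 to 0.0024, overlapped that of Nfkbia slightly. Subtracting the unlabeled rate left the rate of each of the 10 genes within its SD.

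A further comparison asked whether labeling itself went with a change in transcript level. In edgeR's quasi-likelihood test 0 of the 10 genes changed in reads, and 0.00% of 9807 genes were called in either direction. None of the 10 had an unadjusted p below 0.05, which 5.97% of all genes had, and DESeq2 called none of the 10, but 11 genes higher and 4 lower in all. With the replicate number as a block none of the 10 was called either, where 5.38% of genes were called higher and 6.30% lower. The log2 fold changes of labeled over unlabeled reached from -0.22 ± 0.50 (SE) for Relb to 0.34 ± 0.52 for Tnfaip3, and that of Nfkbia was -0.03 ± 0.35. The standard errors were 0.30 to 0.52, and on simulated counts of this depth edgeR recovered 46.5% of the genes simulated with a log2 difference of 2, so smaller changes may not have been detectable. In none of the 10 genes were the 2 groups free of overlap in CPM, against 21.3% of the genes tested.

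**Figure D4:**
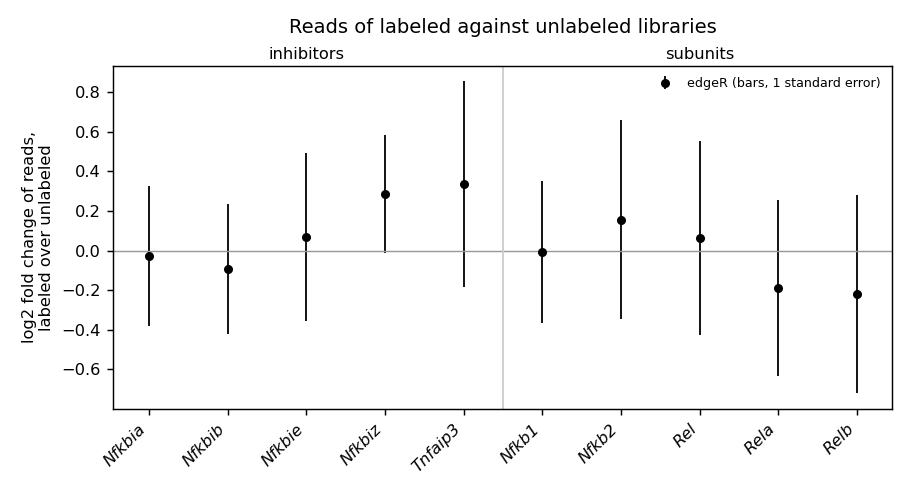
Log2 fold change of reads, labeled over unlabeled, for each gene in edgeR's test, with bars of 1 standard error. Points run from -0.22 for Relb to 0.34 for Tnfaip3, and every bar reaches 0.

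The genes around the 10 in the pathway were counted in the same way. Of 32 signalling genes (receptors, adaptors and kinases upstream of NF-kB), 31 could be tested for the conversion rate and all 31 were raised, where 95.2% of genes with 1 interval each were, and 0 of 29 changed in reads. Of 14 other inhibitors, such as Cyld and Tnip1, 13 of 13 tested were raised and 0 of 13 changed in reads. Of 29 NF-kB targets, 24 of 25 tested were raised, Ccl5 being the exception, and 0 of 25 changed in reads. At an unadjusted p below 0.05, 6 of the 25 targets differed in reads, 4 higher in labeled libraries (Lif, Csf1, Bcl2l1 and Ptgs2) and 2 lower (Vcam1 and Irf1), as did Chuk of the signalling genes (lower) and N4bp1 of the other inhibitors (higher), which are named here after their values were seen. The share over all genes was 5.97%, and none of these passed the adjustment. The median level of the signalling genes was 29.8 CPM, of the other inhibitors 40.1 CPM, of the targets 63.8 CPM and of the 10 subunits and inhibitors 28.6 CPM, beside 5.31 CPM over all 20365 gene names and 31.7 CPM over genes with a read in every library, as all 10 had.

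Genes with the coverage of 1000 T positions allow a closer comparison of rates. Among 8 such signalling genes the median rate was 0.0417. The IL-1 receptor chains Il1rap and Il1r1 had rates of 0.0450 ± 0.0056 and 0.0446 ± 0.0036 (SD, n = 3), and Ltbr, the lymphotoxin receptor, had 0.0430 ± 0.0099. Irak1 and Tnfrsf1a, a kinase and the main TNF receptor, both had 0.0361, and Tab2, an adaptor of the kinase Map3k7, had 0.0352 ± 0.0024. Of the other inhibitors only Tax1bp1, a partner of the Tnfaip3 protein, had this coverage, with 0.0471 ± 0.00089. The mean Nfkbia rate of 0.0326 was below the mean of each of these genes. Il1rap, Il1r1, Ltbr and Tax1bp1 were above Nfkbia in every labeled library, but the order turned for the others. Irak1 (0.0316) and Tab2 (0.0325) were below Nfkbia (0.0346) in labeled replicate 3, and Tnfrsf1a (0.0294) was below it (0.0295) in replicate 1.

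Among 14 such targets the median was 0.0415, but they spread more widely. The chemokine genes Ccl2 and Ccl7 had rates of 0.0524 ± 0.0025 and 0.0475 ± 0.0031, and Tnfaip6, a hyaluronan-binding protein, had 0.0446 ± 0.0047. At the other end were Tnfaip2 with 0.0325 ± 0.00096, the protease gene Mmp3 with 0.0189 ± 0.0032 and the acute-phase gene Saa3 with 0.0159 ± 0.0012. Nfkbia, itself a target in textbook terms, was close to Tnfaip2. Reads of Mmp3 were at 1212 CPM and of Ccl2 at 389 CPM, which brackets the 441 CPM of Nfkbia.

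The pattern most like Nfkbia was sought among the genes with this coverage, by the mean absolute difference over the 3 labeled libraries in log2 level and in conversion rate. The 5 nearest were Reep5 (450 CPM and a rate of 0.0324), Klf6 (502 CPM, 0.0330), Klf9 (496 CPM, 0.0347), Cebpb (505 CPM, 0.0333) and Mxra8 (362 CPM, 0.0304). For Rela they were Fhod1, Pfn1, Ak3, Rbms2 and Ccng2, with distances from 0.788 to 1.01 in SD units, against 0.299 to 0.509 for Nfkbia. Rela has fewer covered T positions than the genes it was compared with. Likeness over 3 libraries is a description and shares their depth.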

How the data were processed

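SLAMseq libraries of cardiac fibroblasts were analysed, 3 labeled and 2 unlabeled, grouped by the submitters' labels. The authors took the molecular identifiers off the reads with umi-tools, mapped them with SLAM-DUNK 0.4.3 (mm39), deduplicated, and deposited, per 3′ UTR interval and library, counts of reads, of reads with a T>C conversion, of covered T positions and of conversions, without normalization. They also deposited the conversion rate, a fraction of the covered T positions. The deposited CPM divides by a total larger than the reads on the intervals. How the interval set was made is not given in the sources used here.

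Each table of 97442 rows held 40428 distinct intervals, and repeats were used once. Coordinates are counted from 1, and GRCm39 gave the tables' T content for 40380 of 40380 intervals that lie on its chromosomes. Rates were compared with a two-sided beta-binomial likelihood-ratio test (chi-square, 1 degree of freedom, unadjusted p below 0.05) on intervals where each library covered at least 1 T. For reads, edgeR's quasi-likelihood test was run with 1 interval per gene (TMM, filterByExpr, Benjamini-Hochberg, adjusted p below 0.05). Levels were log2-transformed with a pseudocount of 1. On simulated data the beta-binomial test called 94% of changed and 5.64% of unchanged intervals, and edgeR recovered 93 of 200 genes with a log2 fold change of 2, with 14 false calls. Wilson intervals are at 95%, and a count of 0 allows 3 conversions.

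The genes named by rule were the 10 members, the 3 highest and 3 lowest rates of each pathway list and the 5 genes most like Nfkbia and Rela, the last 2 rules among genes for which each library covered 1000 T positions or more. Cell type markers, examples of the lists and genes that stood out by a call or an unadjusted p are named beside these, the last after their values were seen. Members and lists were chosen with earlier results of these data known. Alternatives were DESeq2, other size factors, no filter, a block on the replicate number, sums over all intervals of a gene, other coverage minimums, limma on log odds, the share of reads with a conversion, the unlabeled rate subtracted, CPM as deposited or per kilobase, other pseudocounts, leaving out Nfkbib and leaving out each library. The software was Python 3.11.15 (numba 0.67.0, scipy 1.17.1, numpy 2.4.6, matplotlib 3.10.9, pandas 2.3.3) and R 4.3.3 (DESeq2 1.42.0, edgeR 4.0.16, limma 3.58.1).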

Additional observations from a re-analysis of the deposited data

How the results depend on the processing

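The call of a raised conversion rate held for 10 of 10 genes with Benjamini-Hochberg adjustment, where 18175 of 19240 of all intervals were called. It also held for 10 of 10 with each library left out, where between 17056 of 19374 and 18632 of 20405 were called. With at least 100 covered T positions it held for 8 of 8, beside 13618 of 13669 intervals. With limma on the log odds it held for 8 of 8, beside 13622 of 13669. With at least 1000 covered T positions it held for 1 of 1, beside 3154 of 3156. With at least 1000 covered T positions the difference of inhibitors and subunits had no value, since only Nfkbia remained. That difference in rate was 0.00083 ± 0.0032 and turned to -0.0019 ± 0.0018 without Nfkbib. In the share of reads with a conversion, another quantity, it was 0.0457 ± 0.043. The difference in log2 level of -0.71 became 0.34 per kilobase and -0.0413 without Nfkbib, and lay between -1.03 and -0.52 with a labeled library left out. The mean rate of each gene moved by less than its SD in 50 of 50 alternatives. Most of these could not have come out otherwise. Leaving out a labeled library cannot move such a mean by its SD. The sum over intervals gave the same rate for Nfkbia, Nfkbie, Nfkbiz, Tnfaip3, Nfkb1, Rel and Rela. None of the 10 genes changed in reads under any of 10 alternatives, and Tnfaip3 was not tested without labeled replicate 1. The sign of the log2 fold change was not stable: with a library left out it lay between -0.38 and 0.43 for Nfkbia, -0.17 and 0.42 for Nfkbie, -0.30 and 0.30 for Nfkb1, -0.33 and 0.79 for Nfkb2, -0.40 and 0.86 for Rel, -0.50 and 0.13 for Rela and -0.70 and 0.35 for Relb. Whether equal replicate numbers stand for the same fibroblast preparation is not stated in the labels. As a check of pairing, the distances of the libraries from their group means correlated across genes, with r = 0.78 for both libraries numbered 1, r = 0.64 for both numbered 2 and r = 0.48 for labeled replicate 3 with unlabeled replicate 2. With 2 unlabeled libraries their distances mirror each other, so these values are not separate evidence of pairing. With the replicate block, which leaves 1 residual degree of freedom, edgeR called 528 genes higher and 618 lower but none of the 10. The block turned the log2 fold change to 0.0045 for Nfkbia, 0.0378 for Nfkb1, -0.0384 for Nfkb2 and -0.11 for Rel, and an unadjusted p below 0.05 was reached by Nfkbiz (0.45, adjusted p = 0.108) and Rela (-0.58, adjusted p = 0.0859), 2 of 10 beside 23.8% of all genes. The cause of these shifts was not tested. Depth limits most of the genes: 9 of the 10 lacked 1000 covered T positions in at least 1 library, and Nfkbib rests on 18 T positions.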
